A study of Rattus norvegicus with 12 samples.

Results

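Triclosan, a chlorinated phenolic diphenyl ether used as an antibacterial agent, was compared with its vehicle DMSO in cultured rat liver cells, in a study that set the toxicity of triclosan beside that of structurally similar chemicals for read-across. The comparison used the 3 arrays titled for triclosan and the 3 titled for DMSO, 6 of the 12 arrays of the series, chosen by their titles. The other 6 arrays hold 3 of diclosan, the analog with 1 chlorine atom fewer, and 3 of a non-hydroxylated diphenyl ether, which entered through the pooled estimate of error, through the choice of probes bright enough to test and, for diclosan, through 1 comparison at the same dose and time. All cells were primary hepatocytes of male Sprague Dawley rats that had been cryopreserved and then cultured for 24 h. They then received 30 µM triclosan, 30 µM diclosan, 30 µM of the non-hydroxylated diphenyl ether or DMSO for 24 h. The labels give neither the DMSO concentration nor the age of the rats, and the study ran 3 independent experiments per condition without saying whether rats or cell lots differed between them. The p-values below therefore cover the spread between these experiments.

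Each array reported a fluorescence intensity per probe. A value below is the log2 of that intensity minus the log2 of the 75th percentile of the same array, so that 0 is the level of a fairly bright probe, and a difference of 1 is a doubling. Such values compare 1 probe between arrays and not 1 gene with another. Across the 6 arrays 51.6% to 55.5% of probes were well above background, the 75th percentile of the raw signal was 458.3 to 512.8, and no spot was saturated. A total of 20359 genes or transcripts were tested, 10685 of them with a gene symbol. The 7 hepatocyte markers chosen for the check (such as albumin, Alb) were all measured, and their summed linear signal, in units of the 75th percentile, was 2060 to 2160 on the DMSO arrays and 1990 to 2110 on the triclosan arrays. Macrophage markers were measured for 4 of 11 genes, with a summed signal of 0.718 to 0.996 with DMSO and 0.771 to 1.03 with triclosan, and Cd163, Marco, Csf1r, C1qa, C1qc, Vsig4 and Aif1 were not measured. Lymphocyte markers were measured for 2 of 6 genes at 0.261 to 0.305 and 0.235 to 0.266, and cholangiocyte markers for 3 of 6 at 2.77 to 2.96 and 2.78 to 3.24. Stellate cell and fibroblast markers, measured for 6 of 10 genes, summed to 14 to 15.3 with DMSO and 12.7 to 13.7 with triclosan. These sums did not overlap, but most of each came from Tagln. In log2, Tagln was at 3.74, 3.53 and 3.62 with DMSO and 3.50, 3.51 and 3.50 with triclosan. Of the 6 differences between triclosan and DMSO, 4 were above and 2 below 0, with a median of 0.023. Among all genes and transcripts tested, 10.4% had non-overlapping lower values. Lrat, Pdgfrb, Dcn and Lum were not measured. Endothelial markers, measured for 3 of 8 genes, summed to 7.98 to 8.48 and 7.41 to 7.99. Most of that sum came from Vwf, and Pecam1, Stab2, Lyve1, Clec4g and Tek were not measured. The part of endothelial and stellate markers in the results below was not tested.

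The hepatocyte turns cholesterol into bile acids and modifies foreign compounds by oxidation and conjugation, and both tasks are set by nuclear receptors. The bile acid receptor Nr1h4 (FXR) raises Nr0b2 (SHP), a receptor without a DNA-binding domain that represses Nr5a2 (LRH-1) and Hnf4a at genes of bile acid synthesis such as Cyp7a1. The receptors Nr1i3 (CAR) and Nr1i2 (PXR) and the factors Ahr and Nfe2l2 (NRF2) raise cytochromes P450, transferases and export pumps when foreign compounds enter the cell.

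Few transcripts changed with triclosan, and Nr0b2 had the largest difference of all. Of the 20359 genes or transcripts, 13 changed (0.0639%; limma, adjusted p under 0.05), 9 higher and 4 lower, and 1 of them at least 2-fold. Of the 13, 6 have a gene symbol. Nr0b2, the secreted stress cytokine Gdf15, the transcriptional coregulator Cited4 and the glutathione transferase Gsta3 rose, and the kinesin Kif26b and the zinc finger factor Klf5 fell. In bulk RNA of a culture, fewer cells of a type and less RNA per cell cannot be told apart.

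**Figure D1:**
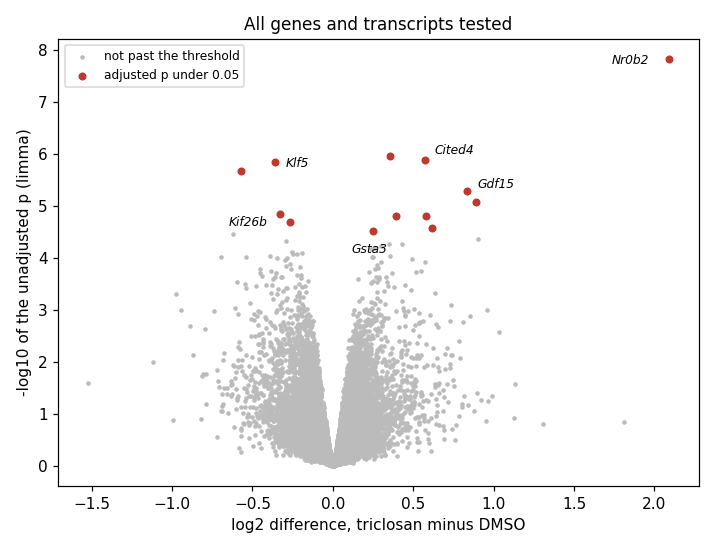
Each point is 1 of the 20359 genes or transcripts, placed by its log2 difference between triclosan and DMSO (horizontal axis) and by the negative log10 of its unadjusted limma p (vertical axis), with the 13 that passed the adjusted threshold in red and those with a symbol named. Nr0b2 stands alone at a difference of 2.09, and the other red points lie between -0.57 and 0.89.

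The window of 250 bases before the annotated start of the 3 named genes that rose most is shown, as the place where factors that act on these genes can bind. Capitals mark matches to any of 6 motifs searched on both strands, which were chosen with the results known: the nuclear receptor half-site AGGTCA, the Nr5a2 half-site core TCAAGG, the antioxidant response core TGACNNNGC, the AP-1 site TGACTCA, the C/EBP-ATF site TGATGNAA and the E-box CACGTG. The windows are chr5:151062910-151063159 for Nr0b2, chr16:18839015-18839264 for the later of the pair of Gdf15 starts and chr5:139531915-139532164 for Cited4, all on the plus strand of GRCr8 and taken from RefSeq.
Nr0b2: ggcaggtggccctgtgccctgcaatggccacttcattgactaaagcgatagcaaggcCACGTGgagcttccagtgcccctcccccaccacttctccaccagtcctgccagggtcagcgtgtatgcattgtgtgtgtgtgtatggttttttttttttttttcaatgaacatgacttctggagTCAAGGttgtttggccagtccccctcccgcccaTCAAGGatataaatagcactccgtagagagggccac
Gdf15: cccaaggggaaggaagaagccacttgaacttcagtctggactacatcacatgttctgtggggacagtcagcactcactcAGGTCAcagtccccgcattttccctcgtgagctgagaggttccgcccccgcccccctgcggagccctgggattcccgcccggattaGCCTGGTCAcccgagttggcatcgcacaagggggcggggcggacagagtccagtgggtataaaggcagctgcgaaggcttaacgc
Cited4: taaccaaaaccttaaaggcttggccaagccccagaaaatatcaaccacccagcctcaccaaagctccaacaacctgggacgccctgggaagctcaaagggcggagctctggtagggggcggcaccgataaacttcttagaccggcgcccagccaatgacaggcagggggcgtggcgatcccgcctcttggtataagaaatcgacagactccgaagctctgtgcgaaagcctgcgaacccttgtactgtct

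The Nr0b2 window held TCAAGG at -69 and at -36 and the palindromic CACGTG at -193, counted from the start to the first base of the match, with -1 as the last base of the window. The Gdf15 window held AGGTCA at -171 and the antioxidant core on the minus strand, read as GCCTGGTCA, at -85. The window of the earlier Gdf15 start, chr16:18838186-18838435, held AGGTCA at -72 and no other match. No match was found in the Cited4 window, which says only that these letters are not in it. Among 33469 rat promoter windows of this length, AGGTCA occurred in 14.1%, TCAAGG in 12.6%, TGACNNNGC in 10.1%, CACGTG in 5.59%, TGACTCA in 4.05% and TGATGNAA in 3.4%. Some of these motifs share letters (TGAC, AGG), and no matches to different motifs overlapped in these windows. A match is a description of sequence and was not tested as a binding site.

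Nr0b2 (probe A_43_P13041) was at -2.21, -1.76 and -2.01 on DMSO arrays 1 to 3 and at 0.24, -0.072 and 0.14 on triclosan arrays 1 to 3. All 3 triclosan arrays were far above all 3 DMSO arrays, and the distance between the groups was several times the spread within either. The means were -1.99 ± 0.22 and 0.10 ± 0.16 (SD, n = 3), a difference of 2.09 (95% interval 1.81 to 2.37) or 4.27-fold, with a limma adjusted p of 0.000308. DMSO 1 to 3 and triclosan 1 carry the same first position number on the slide, and triclosan 2 and 3 carry the next. Within the shared position, triclosan 1 stood 2.23 above the DMSO mean, and triclosan 2 and 3 together stood 2.03 above it.

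The partners and targets of Nr0b2 in bile acid metabolism gave small differences, none past the threshold. Its activator Nr1h4 differed by 0.037 (interval -0.053 to 0.13) and its partner Nr5a2 by 0.077 (-0.075 to 0.23). Hnf4a, the master factor of hepatocyte identity, was at 4.34, 4.41 and 4.39 with DMSO and 4.58, 4.49 and 4.51 with triclosan, higher on all 3 arrays by 0.15 on average (adjusted p = 0.186 by limma). The export pump of bile salts Abcb11 differed by 0.032 (-0.043 to 0.11) and the uptake carrier Slc10a1 by 0.031 (-0.094 to 0.16). Cyp7a1, the rate-limiting enzyme of bile acid synthesis, and Cyp8b1, which sets the cholic acid share, each had 1 probe that was not well above background on any of the 6 arrays, so neither could be compared. The measured bile acid synthesis enzymes (14) had a median difference of 0.031, and 2 of them, both higher, had an unadjusted p under 0.05. Among all genes and transcripts tested, 5.42% were higher and 6.16% lower at that unadjusted limma p, and the median difference was -0.0062. Acox2, a peroxisomal oxidase of the bile acid side chain, was one of the pair, at -0.87, -0.68 and -0.86 with DMSO and -0.51, -0.57 and -0.64 with triclosan.

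The bile acid and organic ion transporters (20 measured) had a median difference of 0.022. At an unadjusted limma p under 0.05, 2 were higher and 1 lower (5.42% and 6.16% of all tested). The uptake carrier Slco1b2 differed by 0.20 and the phospholipid pump Abcb4 by -0.13. In the list of bile acid signalling genes and liver nuclear receptors (28 measured), Nr0b2 was the only member that changed. Apart from it, the receptor Nr1i3 was at -0.62, -0.36 and -0.63 with DMSO and -0.16, -0.33 and -0.36 with triclosan, a difference of 0.25 with an adjusted p of 0.295 in limma. The adipogenic receptor Pparg differed by -0.17 (adjusted p = 0.218, limma), and Nr1i2 by 0.040.

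Gdf15 (probe A_64_P011489) was at 0.31, 0.25 and -0.020 on the DMSO arrays and at 1.14, 0.99 and 0.90 on the triclosan arrays. Every triclosan array lay above every DMSO array, with a gap wider than the spread of either group. The difference was 0.83 (interval 0.62 to 1.04), a 1.78-fold rise with a limma adjusted p of 0.0177, and triclosan 1 alone stood 0.96 above the DMSO mean. Its call was lost when DMSO 2, triclosan 1 or triclosan 2 was left out (adjusted p = 0.0513, 0.0609 and 0.0812 in limma). Gdf15 is a target of the integrated stress response and of p53, and other genes of those programs were measured with it. Of 32 measured genes of the integrated stress response and amino acid supply, 14 were above and 18 below 0, the median was -0.0070, and Gdf15 was the only one that changed. At an unadjusted p under 0.05, 5 of the 32 were higher and 3 lower (5.42% and 6.16% of all tested). Atf3, a stress factor, was at 3.81, 3.79 and 3.86 with DMSO and 3.64, 3.64 and 3.68 with triclosan, a difference of -0.17 with a limma adjusted p of 0.163. The cysteine-producing enzyme Cth differed in the other direction, by 0.26 (adjusted p = 0.161, limma), and Ddit4, a stress-induced inhibitor of mTORC1, by 0.21 (adjusted p = 0.249, limma).

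Fgf21, the other liver hormone of cell stress, differed by 0.058 (interval -0.059 to 0.17) and its groups did not overlap. Over all genes and transcripts 8.59% had all 3 triclosan arrays above all 3 DMSO arrays and 10.4% had them below. Other secreted factors came close to the threshold. Igfbp4, a binding protein of insulin-like growth factors, was at 4.03, 4.08 and 4.01 with DMSO and 4.45, 4.40 and 4.31 with triclosan, a difference of 0.35 (adjusted p = 0.0616, limma). Igfbp1, its insulin-repressed relative, differed by 0.27 (adjusted p = 0.0791, limma). Inhbe, the activin E subunit, differed by -0.31 (adjusted p = 0.0992, limma). Among 22 measured p53 targets and apoptosis genes the median was 0.0041, with 11 above and 11 below 0. At an unadjusted limma p under 0.05, 4 were higher and 2 lower (5.42% and 6.16% of all tested). Tp53inp1, a p53-induced stress protein, differed by 0.23 and Bbc3, the apoptosis inducer PUMA, by 0.16, both with a limma adjusted p of 0.165.

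Cited4 (probe A_64_P118457), a coregulator that binds CBP and p300, was at -2.56, -2.40 and -2.41 with DMSO and -1.80, -1.89 and -1.95 with triclosan. The groups were well apart, and the difference was 0.58 (interval 0.45 to 0.70), 1.49-fold, with a limma adjusted p of 0.00731. Triclosan 1 stood 0.66 above the DMSO mean. The call held with any 1 of the 6 arrays left out. It was lost with median centring, without the filter on dim probes and on slide 1 alone (limma adjusted p = 0.124, 0.0725 and 0.102). With normexp, whose offset of 50 by itself shrinks differences of dim probes, the difference was 0.38. Cited2, its family member that competes with the hypoxia factor for p300, had overlapping groups and differed by -0.21 (adjusted p = 0.365, limma). The hypoxia factors Hif1a and Epas1 differed by 0.034 and -0.17.

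Klf5, a growth-linked factor, fell on the brightest of its 3 probes (A_44_P1164206). That probe read -1.19, -1.16 and -1.19 with DMSO and -1.57, -1.49 and -1.56 with triclosan, a difference of -0.36 (interval -0.44 to -0.28) with a limma adjusted p of 0.00731. The groups were narrow and did not overlap. The other probes disagreed, at -0.32 (adjusted p = 0.407) and 0.015 (adjusted p = 0.966, both limma), and with the mean of the 3 probes the adjusted p for Klf5 was 0.163. Without DMSO 2 it was 0.0513 (limma). Of 13 measured Kruppel-like factors, Klf5 was the only one that changed. Klf4 differed by -0.20 with groups apart (adjusted p = 0.296, limma), and Klf9, a thyroid hormone and glucocorticoid target, by 0.17 (adjusted p = 0.218, limma).

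Kif26b (probe A_64_P095760), a kinesin family member, was at -1.65, -1.63 and -1.65 with DMSO and -1.87, -1.93 and -1.93 with triclosan. It fell by 0.27 (interval -0.35 to -0.19, adjusted p = 0.0375 in limma), with both groups tight. Leaving out any 1 of the 6 arrays gave an adjusted p of 0.0609 to 0.168. Of 24 measured kinesins it was the only one that changed, and 2 were lower at an unadjusted p under 0.05, a share near the 6.16% of all tested. Gsta3 (probe A_64_P035291) was at 3.81, 3.88 and 3.91 with DMSO and 4.10, 4.12 and 4.13 with triclosan. It rose by 0.25 (interval 0.17 to 0.33), 1.19-fold, with a limma adjusted p of 0.0486, and with any 1 of the 6 arrays left out that p was 0.0811 to 0.172. The alpha-class members are highly alike in sequence, so the probe could also bind relatives of Gsta3.

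**Figure D2:**
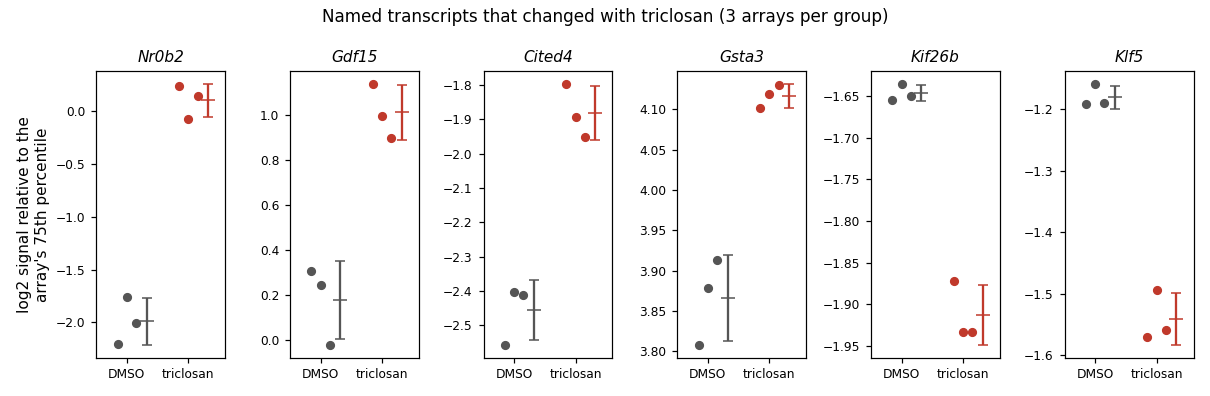
Each panel shows 1 of the 6 named genes that changed, with the log2 signal relative to the 75th percentile on each of the 3 DMSO arrays (grey) and the 3 triclosan arrays (red), and a bar at the mean with its SD. In all 6 panels the groups are apart, by the most for Nr0b2 (-1.99 against 0.10) and by the least for Gsta3 (3.87 against 4.12), and each vertical axis has its own range.

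The 7 changed transcripts without a symbol include 5 that rose and 2 that fell. Those with the largest rise were probe A_42_P513997, at -3.94, -3.91 and -4.04 with DMSO and -3.19, -2.87 and -3.15 with triclosan (a difference of 0.89, limma adjusted p = 0.0241), and probe A_44_P356829 (0.62, limma adjusted p = 0.0464). The largest fall was at probe A_44_P1127949, at -4.04, -4.04 and -4.19 with DMSO and -4.67, -4.77 and -4.55 with triclosan. It fell by 0.57 (limma adjusted p = 0.00867), but the probe was above background on 2 of the 3 triclosan arrays. Probe A_44_P1364852 fell by 0.33 (limma adjusted p = 0.0322).

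Several limits bear on all 13. In a fit of the 6 arrays alone 0 passed by limma, 2432 had an unadjusted p under 0.05, and the adjusted p of Nr0b2 was 0.0565. In the limma fit with array position as a block, which leaves triclosan 1 as the only array at the DMSO position, 2 passed. They were Nr0b2 (2.23, adjusted p = 0.0128) and Dio3, the thyroid hormone-inactivating deiodinase (0.70, adjusted p = 0.0128), and Gdf15 and Cited4 had an adjusted p of 0.204 and 0.135. With median centring Nr0b2 and Gdf15 were the calls kept, and without the filter on dim probes or on slide 1 alone Nr0b2 was.

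At an unadjusted p under 0.05, 2357 of the 20359 genes or transcripts differed, 1103 higher and 1254 lower, and with arrays centred on the median in place of the 75th percentile 433 were higher and 911 lower. The differences were small. The median absolute difference was 0.062, the 95th percentile was 0.29, and 8 reached a 2-fold and 129 a 1.5-fold difference in any direction. Between 2 arrays of 1 group, the median absolute difference over genes was 0.065 to 0.085, and between a DMSO and a triclosan array it was 0.075 to 0.11.

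Some genes differed by more than most of the 6 named genes that changed, without passing the threshold. Among those with a higher triclosan level, Pck1, the gluconeogenic gatekeeper enzyme, was at -5.22, -4.77 and -4.89 with DMSO and -4.37, -4.10 and -3.98 with triclosan, a difference of 0.81 (adjusted p = 0.163, limma). It was near the detection limit, above background on 1 of 3 DMSO arrays, as were Slfn2 (0.79), the cytokine oncostatin M, Osm (0.71), and Sert1 (0.59). Egr1, the immediate early zinc finger factor, was brighter, at -2.02, -1.59 and -1.61 with DMSO and -1.21, -1.26 and -1.13 with triclosan. The DMSO arrays were spread more widely than the triclosan arrays, and its difference of 0.54 had an adjusted p of 0.165 in limma. Abcg5, a subunit of the sterol export pump, differed by 0.55, angiotensin-converting enzyme, Ace, by 0.53, the kisspeptin gene Kiss1 by 0.60 and the nitric oxide synthase adaptor Nos1ap by 0.74. The sizes of the dim genes depended on the processing. Normexp, run in place of the background step, adds an offset of 50, which by itself shrinks log2 differences of dim probes. With normexp the difference was 0.19 for Pck1, 0.14 for Slfn2, 0.051 for Osm, 0.14 for Sert1, 0.11 for Abcg5, 0.081 for Ace, 0.092 for Kiss1 and 0.22 for Nos1ap, while Egr1 kept 0.42. The part of the offset in these smaller values was not tested.

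The falls named next had groups apart, an unadjusted limma p under 0.05 and signal above background on all 3 DMSO arrays. The largest of such falls were also mostly dim. Over all tested genes with a symbol, whatever their p, the lowest difference was -1.53. Ddr1, a collagen receptor kinase, was measured on all arrays at -2.87, -3.11 and -3.05 with DMSO and -3.60, -3.77 and -3.74 with triclosan. Its groups were apart, and its difference of -0.69 had an adjusted p of 0.0628 in limma. The retinoid and steroid dehydrogenase Dhrs9 differed by -0.89 and was above background on 1 of 3 triclosan arrays, as were Gpr176 (-0.71) and Dipk1b (-0.66). Arhgap4 (-0.68) was above background on 2 of 3, and Dnd1 (-0.74) on all 3. Cux2, Dnase1 and the immediate early factor Egr3 were not well above background on any triclosan array. Their lower level with triclosan is therefore a bound, which holds for the means of these arrays only. The triclosan mean was at least 1.42-fold lower for Cux2, 1.19-fold for Dnase1 and 1.12-fold for Egr3 (limma adjusted p = 0.303, 0.379 and 0.349). Such a bound sets the DMSO mean against the lowest signal counted as above background on each triclosan array, or the probe's own signal if that was higher. It leaves out the spread between arrays. The unadjusted intervals of the fitted log2 differences also held smaller falls, with upper ends of -0.18 for Cux2, -0.073 for Dnase1 and -0.12 for Egr3. With normexp, again with the offset of 50, the difference was -0.34 for Ddr1, -0.25 for Dhrs9, -0.30 for Dnd1, -0.17 for Gpr176 and for Dipk1b, and -0.19 for Arhgap4.

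Among genes of conjugation the differences leaned upward. Of 25 measured genes of glucuronidation and sulfation, 18 were above 0, 6 were higher and 0 lower at an unadjusted limma p under 0.05 (5.42% and 6.16% of all tested), and the median was 0.094. None passed the adjusted threshold. The steroid transferase Ugt2b15 was at 6.09, 6.12 and 6.11 with DMSO and 6.19, 6.22 and 6.25 with triclosan (0.11, limma adjusted p = 0.207). Ugdh, which makes the glucuronic acid donor, differed by 0.19, and the estrogen sulfotransferase Sult1e1 by 0.36 (limma adjusted p = 0.25 and 0.289). Ugt2b1 differed by 0.019 (interval -0.10 to 0.14), and Ugt1a1 had no named probe. Triclosan itself is cleared by glucuronidation and sulfation.

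The glutathione transferases showed the same lean, with 16 of 21 above 0 (47.23% of all tested) and a median of 0.055. At an unadjusted limma p under 0.05, 4 were higher and 0 lower (5.42% and 6.16% of all tested). Gsta3 was the only member that changed. Gsta1, its close relative, was at 7.05, 7.08 and 7.03 with DMSO and 7.33, 7.31 and 7.34 with triclosan. The groups were clearly apart, yet its difference of 0.27 had a limma adjusted p of 0.119. The median over 31 measured NRF2 targets and antioxidant enzymes was 0.022. Of the 31, 5 were higher and 2 lower at an unadjusted limma p under 0.05 (5.42% and 6.16% of all tested). The factor itself, Nfe2l2, was at 3.71, 3.73 and 3.75 with DMSO and 3.81, 3.90 and 3.92 with triclosan, a difference of 0.15 with a limma adjusted p of 0.207. The quinone reductase Nqo1 differed by 0.13 and the heme oxygenase Hmox1 by 0.17 (limma adjusted p = 0.254 and 0.251). Cbr1, the member of the NRF2 list with the smallest limma p, went the other way. It differed by -0.12 with groups apart (limma adjusted p = 0.188).

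No cytochrome P450 that marks activation of foreign-compound receptors passed the threshold. Cyp2b2, the classic CAR target, was at -0.97, -1.04 and -1.28 with DMSO and -0.22, -0.77 and -0.68 with triclosan. Triclosan 1 was the highest, and the difference of 0.54 (interval 0.17 to 0.90) was 0.87 for triclosan 1 and 0.37 for triclosan 2 and 3 (limma adjusted p = 0.261). Cyp2c6v1, another CAR-responsive enzyme, differed by 0.28 and Cyp2a1 by 0.18. Cyp3a23-3a1, the PXR target, had overlapping groups and a difference of 0.097 (interval -0.051 to 0.25). Cyp2b1 had no named probe. Over the 26 measured CAR and PXR targets the median was 0.053. Of the 26, 6 were higher and 1 lower at an unadjusted limma p under 0.05 (5.42% and 6.16% of all tested). For the aryl hydrocarbon receptor, Cyp1a1 was at 1.80, 1.72 and 1.90 with DMSO and 1.93, 2.19 and 2.12 with triclosan, a difference of 0.27 (limma adjusted p = 0.337). Of 7 measured targets of that receptor, 3 were higher and 0 lower at an unadjusted limma p under 0.05 (5.42% and 6.16% of all tested). The median was 0.12, and 4 had non-overlapping higher values (8.59% of all tested). The other members higher at that p were Nfe2l2 and Nqo1, of which Nqo1 is also in the NRF2 list. The PPARalpha list (33 measured) had a median of 0.041. In it Cyp4a1 differed by 0.044 and the pyruvate dehydrogenase kinase Pdk4 by 0.30 (0.15 with normexp).

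**Figure D3:**
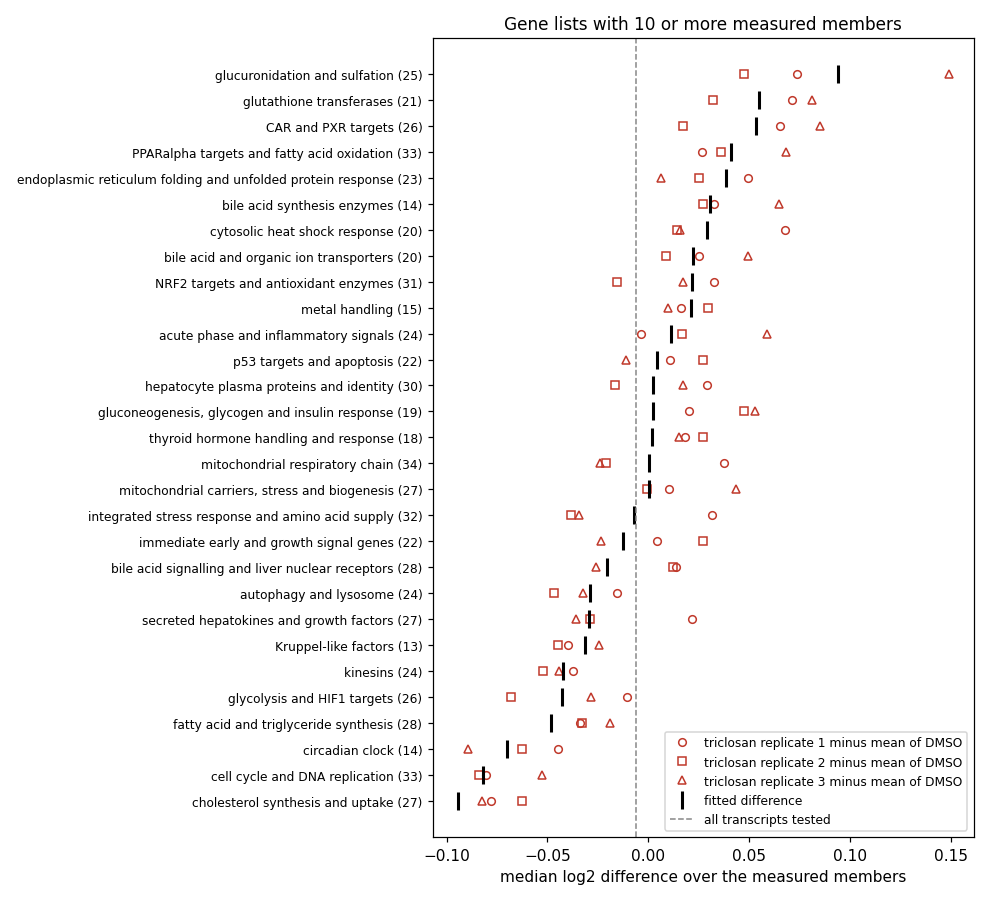
Each row is a gene list with at least 10 measured members (number in brackets). The black bar is the median fitted log2 difference between triclosan and DMSO over its members, open symbols give the same median for each triclosan array against the mean of the DMSO arrays, and the dashed line marks the median over all tested (-0.0062). Medians run from -0.094 for cholesterol synthesis and uptake to 0.094 for glucuronidation and sulfation.

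Cholesterol synthesis leaned downward. Of 27 measured genes of cholesterol synthesis and uptake, 22 were below 0, with a median of -0.094, and the median was -0.078, -0.063 and -0.082 for triclosan arrays 1 to 3. At an unadjusted limma p under 0.05, 11 were lower and 1 higher (6.16% and 5.42% of all tested), and 16 had all 3 triclosan arrays below all 3 DMSO arrays (10.4% of all tested). None passed the adjusted threshold. The acetyl-CoA acetyltransferase Acat2 was at 4.49, 4.49 and 4.52 with DMSO and 4.28, 4.27 and 4.32 with triclosan. The groups were apart, and it differed by -0.21 (interval -0.30 to -0.12) with a limma adjusted p of 0.102. The late-step reductase Dhcr7 differed by -0.17 and lanosterol synthase, Lss, by -0.12 (limma adjusted p = 0.155 and 0.163). The feedback sensor Insig1 differed by -0.016 (interval -0.14 to 0.10). The related list of fatty acid and triglyceride synthesis (28 measured) had a median of -0.048. In it 3 were higher and 5 lower at an unadjusted limma p under 0.05 (5.42% and 6.16% of all tested). Its members with the smallest p went both ways: Acss2 differed by -0.15 and Fasn by -0.14, and Gpam by 0.16 and Dgat2 by 0.12.

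Cell cycle genes also leaned downward. Of 33 measured, 28 were below 0, the median was -0.082, 12 had non-overlapping lower triclosan values (10.4% of all tested), and 1 was higher and 6 lower at an unadjusted p under 0.05 (5.42% and 6.16% of all tested). None passed the adjusted threshold. Cyclin E1, Ccne1, was at 0.97, 0.98 and 0.99 with DMSO and 0.77, 0.76 and 0.79 with triclosan, a difference of -0.21 with a limma adjusted p of 0.105. The arrays of each group were nearly identical. Cyclin D1, Ccnd1, differed by -0.22 and the mitotic kinase Plk1 by -0.19 (limma adjusted p = 0.18 and 0.411). The replication clamp Pcna went the other way, by 0.12.

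**Figure D4:**
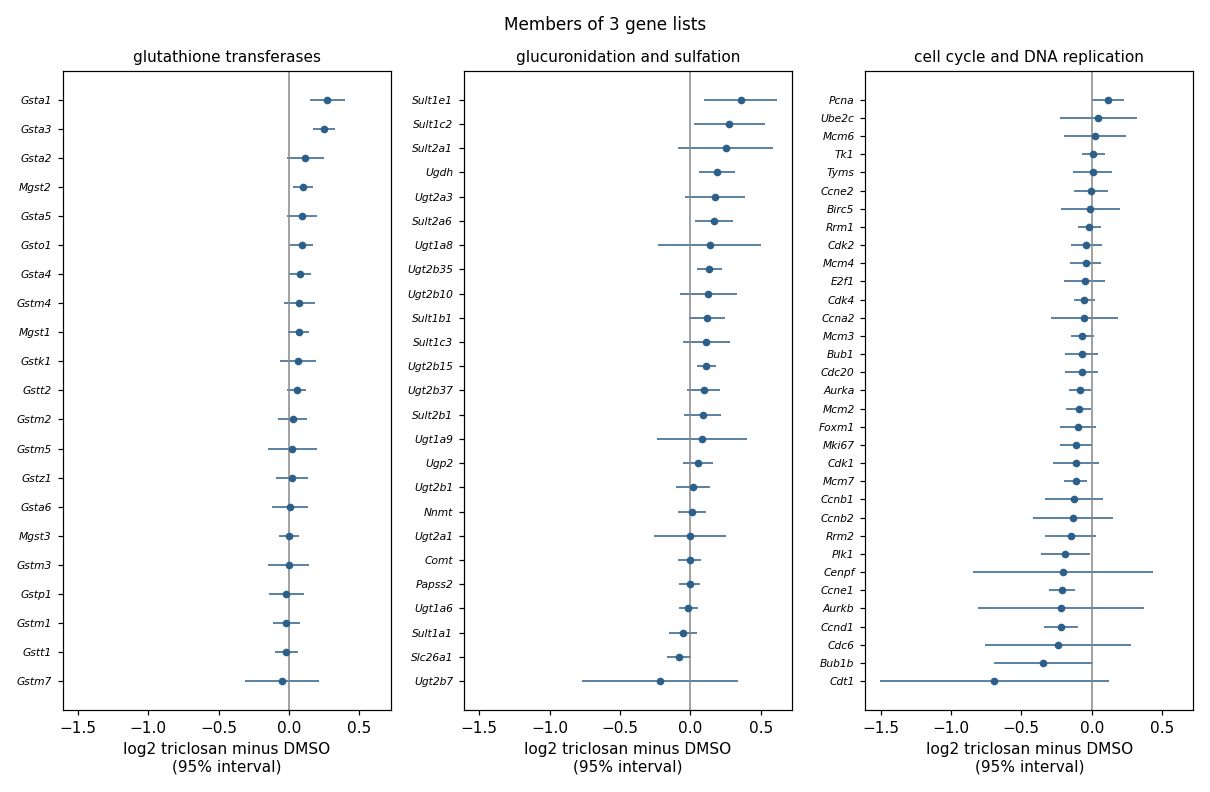
Points give the log2 difference between triclosan and DMSO for each measured gene of 3 lists (21 of glutathione transferases, 25 of glucuronidation and sulfation, 33 of the cell cycle), with the unadjusted 95% interval as a line and 0 as a vertical line. Of the genes shown only Gsta3 passed the adjusted threshold, and most cell cycle genes sit to the left of 0 and most transferases and conjugation genes to the right.

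Subunits of the mitochondrial respiratory chain differed little. Among 34 measured subunits of the mitochondrial respiratory chain, 17 were above and 17 below 0, the median was 0.00030 and the members ran from -0.067 to 0.088. None had an unadjusted limma p under 0.05. The mitochondrial protease Lonp1 was at 4.57, 4.64 and 4.67 with DMSO and 4.92, 4.90 and 4.86 with triclosan, a difference of 0.26 with a limma adjusted p of 0.075. The endoplasmic reticulum list (23 measured) had 18 genes above 0 and a median of 0.039. In it 2 were higher and 1 lower at an unadjusted limma p under 0.05 (5.42% and 6.16% of all tested). Its co-chaperone Dnajb9 differed by 0.16 (limma adjusted p = 0.0814). The cytosolic heat shock list (20 measured) had a median of 0.029 and 1 member higher at an unadjusted p under 0.05. In the list of gluconeogenesis, glycogen and insulin response (19 measured) the median was 0.0022. At an unadjusted limma p under 0.05, 4 were higher and 1 lower (5.42% and 6.16% of all tested). Those higher included Pck1, Igfbp1 and the glycogen-targeting subunit Ppp1r3c, which differed by 0.20 (limma adjusted p = 0.178). In the glycolysis and HIF1 list (26 measured) the median was -0.043 and pyruvate kinase, Pklr, differed by -0.22. The circadian clock list (14 measured) had 12 genes below 0, a median of -0.070 and none with an unadjusted p under 0.05.

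Thyroid hormone and iron genes had single members near the threshold. Dio3 was at -1.13, -1.13 and -1.14 with DMSO and -0.43, -0.76 and -0.74 with triclosan. The triclosan arrays were all higher, triclosan 1 by the most, and the difference was 0.49 (interval 0.31 to 0.67, limma adjusted p = 0.0628). Dio1, the activating deiodinase of the liver, differed by 0.15 (interval 0.058 to 0.24, limma adjusted p = 0.218), and the thyroid hormone target Thrsp by -0.020. Of 18 measured genes in the thyroid list, 9 were above and 9 below 0, with a median of 0.0016. The median changed sign in 5 of 20 alternatives. At an unadjusted limma p under 0.05, 5 were higher and 1 lower (5.42% and 6.16% of all tested). The iron exporter Slc40a1 was at 4.83, 4.83 and 4.89 with DMSO and 5.11, 5.06 and 5.09 with triclosan, a difference of 0.24 with a limma adjusted p of 0.0628. Hepatocyte products differed little. Alb differed by -0.052 (interval -0.13 to 0.027), and the 30 measured genes of plasma proteins and hepatocyte identity had a median of 0.0024.

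Triclosan was also compared with diclosan, which keeps the phenolic hydroxyl group and lacks 1 chlorine atom, at the same dose and time. This was the only pair of compounds compared, over 20359 genes or transcripts, and diclosan replicate 3 was on another slide than the other arrays used here. None changed (0%; 1385 had an unadjusted p under 0.05 in limma), and the smallest adjusted p was 0.069. A p that misses the threshold does not show that the compounds act alike. For Nr0b2, diclosan gave a mean of -0.19 and triclosan 0.10, a difference of 0.30 (unadjusted interval 0.014 to 0.58, limma adjusted p = 0.712). For Gdf15 the difference was 0.16 (-0.055 to 0.37), for Cited4 -0.039 (-0.16 to 0.086) and for Gsta3 0.019 (-0.059 to 0.096). For Klf5 and Kif26b it was -0.18 (-0.26 to -0.11) and -0.10 (-0.18 to -0.023), with limma adjusted p of 0.301 and 0.624. These genes were picked for their difference between triclosan and DMSO, and the same triclosan arrays enter both comparisons. The widest gap among the changed transcripts was at probe A_42_P513997, at 0.66 (0.42 to 0.89, limma adjusted p = 0.216), and the interval nearest to calling was at probe A_44_P1364852, at -0.34 (-0.43 to -0.25, limma adjusted p = 0.102).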

How the data were processed

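Scanner files of 12 one-colour Agilent arrays were used. The deposited files hold each spot's intensity, background-subtracted and detrended by Feature Extraction 10.7.1.1, per the file headers, and not scaled between arrays. Detrending and the floor for dim spots may alter differences between dim probes, which was not tested. Control spots and non-uniform spots (1 to 8 per array) were left out, spots of a probe were averaged in log2, and each array's 75th percentile was subtracted, which takes most bright transcripts as level. Of 45598 probes, 24254 were kept: those with signal above background throughout 1 or more of the 4 groups (for a probe printed several times, more than 0.5 of its spots). RefSeq accessions of GRCr8 named 21229 probes, and the brightest kept probe stood for a gene. No column of another sample was present (0).

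All 12 arrays were fitted by group with limma 3.58.1 in R 4.3.3 (version 1.17.8 of data.table), two-sided, with Benjamini-Hochberg adjustment over 20359 genes or transcripts and 0.05 as threshold. The script was tested on simulated data. With 3 arrays per group, unadjusted 95% intervals had a median half-width of 0.14.

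The members and the 37 gene lists were chosen with earlier results of these data known. Genes are named if they passed, were among the 10 largest other rises or falls (unadjusted p under 0.05, groups apart, brighter group above background on 3 arrays), had one of the 4 smallest p of a list, or belonged to a fixed set of liver genes. Nr1i2, Insig1 and Pcna were named outside this rule, after their values were seen. A few genes chosen by this rule were left out of the text.

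Alternatives were the authors' deposited value table, normexp (offset 50, on the median spot signal, since the files used here hold no mean signal), median centring, quantile normalization, other filters, the mean of probes, blocks for slide, replicate number and array position, fewer arrays, a variance trend and each array left out. The value table holds a linear signal scaled near the 75th percentile (at 1.003 to 1.008, with medians of 0.048 to 0.055), and its log2 values correlated with the scanner values at 0.99994 to 0.99997.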

Additional observations from a re-analysis of the deposited data

How the results depend on the processing

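The count of 13 changed transcripts was 20 with normexp (10 of the 13 kept), 27 with quantile normalization (13 kept), 45 with the slide as a block (13 kept) and 75 with a variance trend (10 kept). It was 2 with median centring, 1 without the filter on dim probes, 2 with array position as a block, 1 with the slide 1 arrays only and 0 with the 6 arrays alone. It was 13 with the authors' value table, 14 with the filter on both groups, 16 with the mean of probes, and 14 with a filter on the DMSO or triclosan group, an alternative chosen after seeing the data. Leaving out 1 array gave 5 to 6 calls. Fewer arrays leave fewer residual degrees of freedom, and without the filter 38986 rather than 20359 were tested. The causes of these shifts in the count were not tested. Nr0b2 passed in 19 of 20 alternatives, Cited4 in 15, Gdf15 and Klf5 in 13, Gsta3 in 9 and Kif26b in 6, each with the same sign throughout. For triclosan against diclosan, the count of 0 became 1 with the slide as a block, 1 with a variance trend and 1 to 2 without each diclosan array. With the replicate number as a block 26 transcripts changed against DMSO (11 of the 13 kept). Same-numbered DMSO and triclosan arrays correlated at -0.029 to 0.095 in their deviations, within the range of differently numbered arrays (-0.171 to 0.164). So few correlations cannot decide whether same-numbered arrays shared an experiment, and the labels do not say what the number means. The median difference over all tested moved between -0.028 and 0.047 across alternatives. The medians of the cholesterol (-0.12 to -0.060), cell cycle (-0.10 to -0.062), conjugation (0.045 to 0.12) and glutathione transferase (0.033 to 0.071) lists kept their sign. Probes near background limit the dim genes named.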

Other observations

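Outside the changed transcripts, 75 genes or transcripts had a limma adjusted p between 0.05 and 0.1, 32 higher and 43 lower with triclosan. Of these 45 have a symbol, 14 higher and 31 lower.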
